A study of Mus musculus with 6 samples.

Results

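The genes described here are 33 genes of cholesterol and fatty acid synthesis, chosen by name from the 16640 genes counted in MIN6 cells, a mouse pancreatic β-cell line that came from an insulinoma. They are the SREBP transcription factors, the proteins that hold or move them, and the enzymes of both pathways: 7 members act in mevalonate and isoprenoid steps, 11 in squalene and sterol steps, 6 in SREBP control and sterol transport, and 9 in fatty acid synthesis, elongation and desaturation. RNA was sequenced from control cells and from *Thada*-activated cells, with 3 libraries per condition and replicate numbers 1, 2 and 3 in each. Both lines were made with lentivirus and carry dCas9, a Cas9 that binds DNA without cutting it. In the *Thada*-activated line an sgRNA brings transcriptional activators to the *Thada* promoter (the SAM system), and the control line has a non-targeting sgRNA. Each condition was a single stably infected line, and the labels do not say whether the 3 libraries came from separate cultures, so p-values measure only the spread between these libraries, which may be technical.

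The SREBP proteins are made as precursors in the membrane of the endoplasmic reticulum. When sterols are low, SCAP carries them to the Golgi, where proteases release the part that enters the nucleus and switches on the genes of lipid synthesis, and when sterols are high the INSIG proteins hold SCAP back. SREBP-1c is best known for fatty acid genes and SREBP-2 for cholesterol genes, with many shared targets. Pancreatic β-cells need membrane lipid and cholesterol for their insulin granules, and SREBP-1c has been studied in them in connection with lipid overload.

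Libraries held from 17166511 to 17727004 counts. Counts scaled to the library total (CPM) are used for a gene across libraries, and FPKM, which also divides by gene length, for levels of different genes. A set of 3 values is in the order of replicates 1, 2 and 3. All 8 β-cell markers examined were detected, with a summed level from 94130 to 127202 CPM, with *Ins2* the most abundant of them. Of 12 markers of other pancreatic, connective, immune and vessel cells, 8 were measured and summed to between 114 and 199 CPM, nearly all of it the hormone genes *Sst*, *Gcg* and *Ppy*, while *Col3a1* was at or under 3 counts in 5 of the 6 libraries. The targeted gene, *Thada*, gave 27.7, 29.0 and 16.96 CPM in control cells and 57.4, 56.2 and 50.2 CPM after activation. The replicate 3 library of each condition stood apart from the others: *Ins2* took 10.2% (control) and 8.36% (*Thada*-activated) of its counts against 5.65% to 6.44% in replicates 1 and 2, and the summed markers of other cells were 114 and 124 CPM against 169 to 199 CPM. That sum followed *Sst*, with a mean of 63.6 CPM in replicate 3 and 139 CPM in replicates 1 and 2, and the list had no common direction: of its 6 tested markers, 2 were called higher in replicate 3 (*Ppy* and *Col1a1*, log2 differences 0.70 and 1.28) and 3 lower, by the test described further on. Of the 8 β-cell markers, 1 was called higher and 3 lower, where 15.7% of all tested genes were called higher and 15.4% lower. The part of these values in the results below was not tested.

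Every one of the 33 genes passed the filter on low counts. The highest median over the 6 libraries was that of *Acly*, which makes cytosolic acetyl-CoA from citrate, at 765 FPKM (range 590.1 to 776 FPKM), followed by the desaturase gene *Scd2* at 413 FPKM (210 to 440.4 FPKM). *Fads2* (median 211 FPKM, range 113 to 229 FPKM) and *Fads1* (median 209 FPKM, range 199 to 225 FPKM), the desaturases of polyunsaturated fatty acids, were next. Their medians were close, but *Fads2* was 1.01 to 1.06 times *Fads1* in replicates 1 and 2. In replicate 3 it was 0.536 (control) and 0.574 (*Thada*-activated) times *Fads1*. *Srebf1* had a median of 91.9 FPKM and *Srebf2* one of 39.6 FPKM. *Fdps*, which makes farnesyl diphosphate, was the highest of the cholesterol enzymes by median, at 90.9 FPKM, near that of *Srebf1* and within its range. In replicate 3, however, *Msmo1* was above it, at 111 FPKM against 72.0 FPKM in control and 97.8 FPKM against 68.65 FPKM in *Thada*-activated cells. The lowest was *Hsd17b7*, a sterol 3-ketoreductase, at 1.98 FPKM, below the next lowest, *Mvd*, at 8.27 FPKM, in every library. Together the 33 genes took 0.911%, 0.940% and 0.704% of the counts in control replicates 1, 2 and 3, and 0.949%, 0.968% and 0.763% in the *Thada*-activated ones.

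The first question was whether activation of *Thada* changed these genes. None of the 33 was called between *Thada*-activated and control cells by edgeR's quasi-likelihood test (Benjamini-Hochberg adjusted p under 0.05 and fold change over 1.5), where 0% of all 12516 tested genes were called, and none had an unadjusted p under 0.05, as 0.807% of all tested genes did. DESeq2 called 0 of the 33 as well. The targeted gene *Thada* was itself not called by edgeR without a block, at a log2 fold change of 1.13 (95% interval 0.60 to 1.66). That fit can thus miss a change of this size. With the replicate block *Thada* was called, at 1.15 (95% interval 0.94 to 1.37). With the replicate number as a block, 0 of the 33 were called, against 0.152% of all tested genes, and 3 had an unadjusted p under 0.05 (9.09% of the 33, against 10.4% of all tested genes). The log2 fold changes of the blocked fit ran from -0.16 to 0.20 with a median of 0.05, where the median of all tested genes was -0.00. The 95% intervals of all 33 genes lay between -0.32 and 0.37 on the log2 scale with the block, within a 1.5-fold change. Without the block, the intervals of 22 of the 33 did. In bulk RNA, a change in the share of cells and a change in RNA per cell cannot be told apart.

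*Srebf1*, which encodes SREBP-1, lies on the minus strand of chromosome 11 (GRCm38, chr11:60199089-60222581). It gave 384, 373 and 159 CPM in control cells and 447, 444 and 182 CPM after activation. The *Thada*-activated library was above the control library of the same number each time, but the conditions overlapped because both replicate 3 libraries were low. Means were 305 ± 127 CPM and 358 ± 152 CPM (SD, n = 3), and the log2 fold change was 0.21 (standard error 0.47, adjusted p = 1 in edgeR). With the replicate block it was 0.20 (standard error 0.06, 95% interval 0.07 to 0.33), and edgeR gave it a p of 0.00596, which was 0.279 after adjustment. In replicates 1 and 2 alone it was 0.23 with an adjusted p of 0.00149 in edgeR, short of a 1.5-fold change. *Srebf2*, which encodes SREBP-2 (plus strand, chr15:82147181-82205379), gave 168, 166 and 222 CPM in control cells and 181, 182 and 217 CPM after activation. These ranges overlapped, and the blocked log2 fold change was 0.05 (standard error 0.06, adjusted p = 0.844 in edgeR).

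*Scd1*, a stearoyl-CoA desaturase that makes monounsaturated fatty acids, gave 231, 240 and 298 CPM in control cells and 262, 288 and 331 CPM after activation. Each *Thada*-activated library was above the control library of its number, and the conditions overlapped through control replicate 3. Its log2 fold change was 0.17 (standard error 0.15, adjusted p = 1 in edgeR), and with the block 0.17 (standard error 0.06, unadjusted p = 0.0142, adjusted p = 0.34 in edgeR). Replicates 1 and 2 alone gave 0.22 with an adjusted p of 0.00624 in edgeR. *Srebf1* and *Scd1* were the only members past the adjusted p threshold in replicates 1 and 2 alone (6.06% of the 33, against 3.41% of 12480 tested genes), and 0 of the 33 also passed the 1.5-fold threshold there, against 0.545%. By unadjusted p under 0.05, 11 of the 33 passed in those libraries (33.3%, against 15.8% of all tested genes), 8 higher (24.2%, against 8.61%) and 3 lower (9.09%, against 7.17%). In the same fit the ductal marker *Krt19* was called higher (1.87, adjusted p = 0.000572 in edgeR), at 0.521 and 0.524 CPM in control and 2.37 and 1.496 CPM in *Thada*-activated libraries. Of the 8 β-cell markers, *Iapp* (-0.18), *Nkx6-1* (0.20) and *Mafa* (0.24) passed the adjusted p threshold there (0.0115, 0.0169 and 0.00979 in edgeR). They differed in direction, without a 1.5-fold change. *Ins1* (0.20), *Ins2* (0.07), *Neurod1* (0.04) and *Pcsk1* (-0.12) did not pass (adjusted p = 0.325, 0.493, 0.747 and 0.174 in edgeR). The remaining marker, *Slc30a8*, overlapped in these libraries, at 180 and 205 CPM in control and 203 and 192 CPM in *Thada*-activated cells. The passing markers, *Krt19* among them, were picked by their values, where 3.41% of all tested genes passed by adjusted p and 0.545% were called. The part of these markers in the values of *Srebf1* and *Scd1* was not tested. *Scd2*, on the same chromosome, averaged 1844 ± 644 CPM (SD, n = 3) in control and 1910 ± 670 CPM after activation, with a blocked log2 fold change of 0.03 (adjusted p = 0.915 in edgeR).

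Among the other members, *Idi1*, which converts isopentenyl to dimethylallyl diphosphate, had the lowest estimate. It gave 40.8, 40.9 and 46.4 CPM in control cells and 35.2, 35.5 and 46.2 CPM after activation, so replicate 3 hardly differed between conditions. Its blocked log2 fold change was -0.16 (standard error 0.07, unadjusted p = 0.0443, adjusted p = 0.462 in edgeR). *Mvd*, which forms isopentenyl diphosphate, had a blocked value of 0.15 (standard error 0.10, adjusted p = 0.643 in edgeR). *Scap* had one of 0.06 (adjusted p = 0.808 in edgeR). *Insig1* and *Insig2* had blocked values of -0.01 and -0.03.

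For 3 of the 33 genes (9.09%, against 5.43% of all tested genes) the control libraries did not overlap the *Thada*-activated libraries, all 3 higher in the *Thada*-activated cells. *Lss*, which closes squalene epoxide to lanosterol, gave 45.9, 49.0 and 43.9 CPM in control cells and 49.4, 49.4 and 50.1 CPM after activation. *Dhcr7*, the last reductase of cholesterol synthesis, gave 71.9, 71.0 and 69.7 CPM in control cells and 81.1, 80.5 and 72.2 CPM after activation. *Acss2*, which makes acetyl-CoA from acetate, gave 42.6, 40.7 and 41.3 CPM in control cells and 43.6, 44.7 and 49.2 CPM after activation. The gaps were small, with blocked log2 fold changes of 0.08, 0.11 and 0.12 and adjusted p-values of 0.736, 0.602 and 0.608 in edgeR. The exact permutation test (two-sided) gives p = 0.1, its smallest for 3 libraries against 3, whenever the groups do not overlap. It therefore adds nothing to the way these 3 genes were picked. In 15 of the 33 (45.5%, against 32.9% of all tested genes) the difference between conditions had the same sign for each replicate number.

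**Figure D1:**
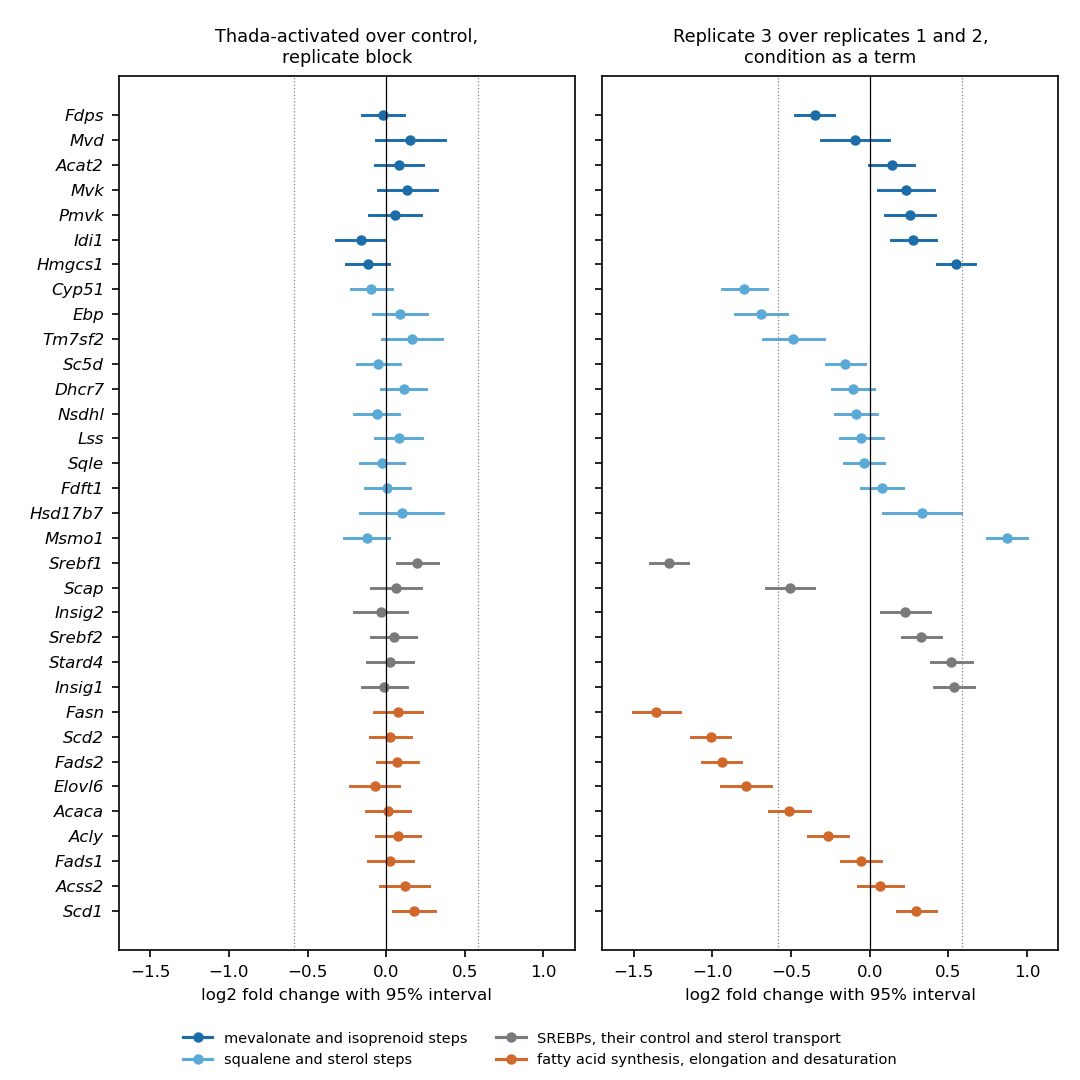
Log2 fold change (x axis) of each of the 33 genes (y axis, coloured by role), with its 95% interval, for *Thada*-activated over control cells with the replicate block (left) and for replicate 3 over replicates 1 and 2 (right). Dotted lines mark a 1.5-fold change. On the left all intervals lie between -0.32 and 0.37, whereas on the right values run from -1.36 for *Fasn* to 0.87 for *Msmo1*.

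The same genes differed far more between the replicate 3 libraries and those of replicates 1 and 2, in both conditions. *Srebf1* and the fatty acid genes *Fasn*, *Scd2*, *Fads2* and *Elovl6* were lower in replicate 3, as were the sterol genes *Cyp51* and *Ebp*, and *Msmo1*, a sterol gene, was higher. These are the 8 called members (24.2% of the 33) by edgeR with the condition as a term, where 31.1% of all 12516 tested genes were called. By direction, 1 was higher (3.03%, against 15.7% of all tested genes) and 7 were lower (21.2%, against 15.4%). By adjusted p alone, 24 of the 33 differed (72.7%, against 68.6%), 11 higher (33.3%, against 34.3%) and 13 lower (39.4%, against 34.4%). In 27 of the 33 (81.8%, against 72.1%) the replicate 3 libraries did not overlap the other 4. The shares in either direction together are near those of all genes, so the counts are not a result about these genes in particular. The labels give no meaning to the number 3, and these libraries were known to stand apart when the comparison was chosen, so the p-values set a difference against the spread and are not independent evidence for it.

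Taken by role, the median log2 difference was -0.51 over the 9 fatty acid genes, with 6 past the adjusted p threshold as lower and 1 as higher. It was 0.23 over the 7 mevalonate genes, with 4 higher and 1 lower. Over the 11 squalene and sterol genes it was -0.09, with 2 higher and 4 lower, and over the 6 genes of SREBP control and sterol transport 0.28, with 4 higher and 2 lower. All tested genes had a median of 0.00, with 34.3% past the adjusted p threshold as higher and 34.4% as lower. With so few genes a role, these counts are a description. The called member nearest to the 1.5-fold threshold was *Ebp* at -0.69, and the nearest that fell short of it were *Hmgcs1* at 0.55 and *Insig1* at 0.54.

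**Figure D2:**
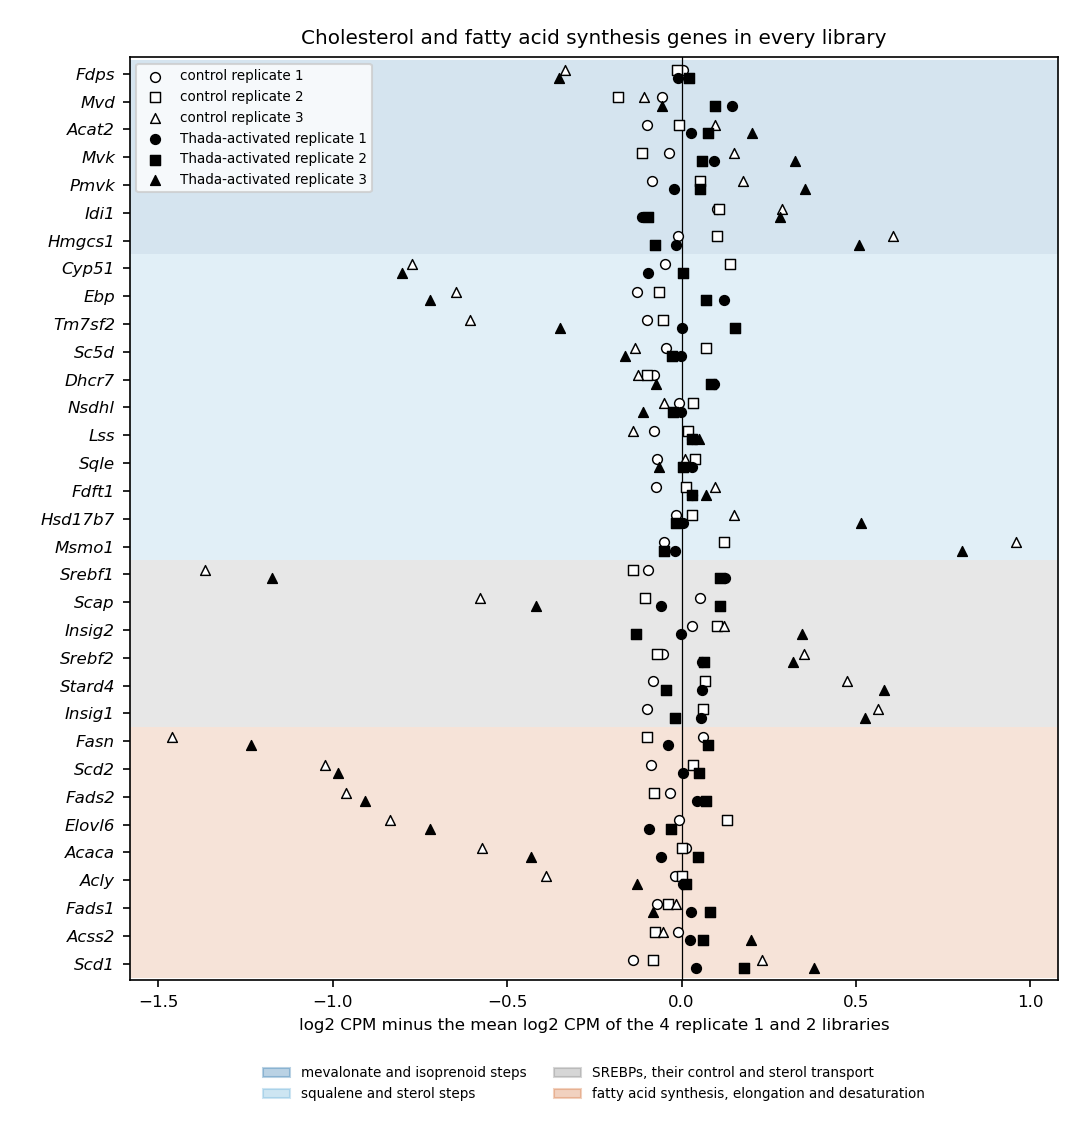
Level of each of the 33 genes (y axis, shaded by role and sorted within it) in each library, as log2 CPM minus the mean log2 CPM of the 4 replicate 1 and 2 libraries (x axis). Circles, squares and triangles are replicates 1, 2 and 3, open for control and filled for *Thada*-activated cells. The triangles of both conditions lie far left for *Fasn*, *Srebf1*, *Scd2* and *Fads2* and far right for *Msmo1*, away from the circles and squares near 0.

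Promoter sequences from RefSeq (GRCm38.p6) are shown, to let their letters be set beside the replicate 3 difference. The genes are those with the largest rises and falls among members with a single RefSeq window. *Srebf1* (-1.28), with several windows, and *Scd2* (-1.01), with none, fell more than *Fads2* (-0.94) and are not shown. Each sequence runs 5′ to 3′ on the strand of the gene from 250 bases before its start to 50 after it. Capitals mark TCACNCCAC, a pattern of the sterol response element, and CCAAT, the box that nuclear factor Y reads, each on either strand, so that CCAAT also appears as ATTGG. *Msmo1* (chr8:64733529-64733828, minus strand) and *Hmgcs1* (chr13:119690101-119690400, plus strand) were higher in replicate 3, and *Fasn* (chr11:120824498-120824797, minus strand) and *Fads2* (chr19:10101454-10101753, minus strand) were lower.
Msmo1: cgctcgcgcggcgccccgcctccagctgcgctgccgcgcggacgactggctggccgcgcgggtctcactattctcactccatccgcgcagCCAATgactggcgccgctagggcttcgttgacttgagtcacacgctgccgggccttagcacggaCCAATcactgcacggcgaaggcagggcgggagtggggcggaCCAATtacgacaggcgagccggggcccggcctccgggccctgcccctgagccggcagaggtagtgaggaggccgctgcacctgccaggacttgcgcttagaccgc
Hmgcs1: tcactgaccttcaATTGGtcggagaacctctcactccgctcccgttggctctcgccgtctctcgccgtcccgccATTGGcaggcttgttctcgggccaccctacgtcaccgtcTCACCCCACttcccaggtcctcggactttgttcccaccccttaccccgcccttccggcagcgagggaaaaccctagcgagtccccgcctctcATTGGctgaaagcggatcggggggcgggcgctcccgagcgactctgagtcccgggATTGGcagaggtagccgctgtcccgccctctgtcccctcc
Fasn: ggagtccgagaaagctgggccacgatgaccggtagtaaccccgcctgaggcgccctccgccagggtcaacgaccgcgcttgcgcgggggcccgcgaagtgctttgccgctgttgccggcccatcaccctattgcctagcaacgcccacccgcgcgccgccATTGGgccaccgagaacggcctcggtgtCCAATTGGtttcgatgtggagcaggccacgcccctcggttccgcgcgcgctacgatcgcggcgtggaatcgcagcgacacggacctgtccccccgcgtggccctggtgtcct
Fads2: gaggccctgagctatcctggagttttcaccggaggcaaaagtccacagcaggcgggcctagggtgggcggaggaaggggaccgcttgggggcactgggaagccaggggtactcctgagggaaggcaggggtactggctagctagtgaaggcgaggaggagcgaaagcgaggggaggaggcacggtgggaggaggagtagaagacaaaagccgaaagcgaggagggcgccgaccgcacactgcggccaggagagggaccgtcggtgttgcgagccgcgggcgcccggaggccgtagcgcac

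The window of *Hmgcs1* held 1 match to TCACNCCAC and 4 to CCAAT. Those of *Msmo1* and *Fasn* held 3 matches to CCAAT each, of which a pair in *Fasn* overlap on opposite strands, and that of *Fads2* held no match to either pattern. RefSeq windows were matched for 26 of the 33 genes. CCAAT was found for 21 of the 26 (80.8%), against 41.1% of the 27025 genes with a window. TCACNCCAC was found for 1 of the 26 (3.85%), against 1.44%, and CACGTG, an E-box, for 5 (19.2%), against 8.09%. These are matches of letters, given as a description. The 27025 genes are more than the 16640 counted here, and no share over expressed genes was taken, so nothing particular to the 33 is read from these shares. The genes higher and lower in replicate 3 both include windows with CCAAT.

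In the mevalonate pathway, no gene was called. *Hmgcs1*, which makes HMG-CoA, gave 87.4, 94.3 and 134 CPM in control cells and 86.9, 83.5 and 125 CPM after activation. Replicate 3 was the highest in both conditions with no overlap, and the log2 difference was 0.55 (standard error 0.06, adjusted p = 8.13e-07 in edgeR), a fold of 1.46. *Idi1* at 0.28 (adjusted p = 0.002 in edgeR), *Pmvk* at 0.26 (adjusted p = 0.00647) and *Mvk* at 0.23 (adjusted p = 0.0235) were higher by less. *Mvk* and *Pmvk* encode the kinases that act on mevalonate in turn. *Fdps* went the other way, with 99.9, 98.7 and 79.0 CPM in control cells and 98.9, 101 and 78.1 CPM after activation. Its log2 difference was -0.35 (standard error 0.06, adjusted p = 7.98e-05 in edgeR), and both replicate 3 libraries were below the other 4. *Acat2*, a thiolase at the head of the pathway, at 0.14 (adjusted p = 0.073 in edgeR), and *Mvd* at -0.09 (adjusted p = 0.429) did not pass the threshold.

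Between squalene and cholesterol, the called genes differed in direction. *Cyp51*, the lanosterol demethylase, gave 129, 147 and 78.2 CPM in control cells and 125, 134 and 76.8 CPM after activation. Both replicate 3 libraries were far below the other 4, with a log2 difference of -0.80 (standard error 0.07, adjusted p = 9.3e-08 in edgeR). *Msmo1*, the sterol methyl oxidase that acts after it, gave 91.6, 103 and 185 CPM in control cells and 93.6, 91.7 and 166 CPM after activation. Here both replicate 3 libraries were the highest, and the log2 difference was 0.87 (standard error 0.06, adjusted p = 1.46e-08 in edgeR), a fold of 1.83. *Ebp*, a sterol isomerase, gave 57.9, 60.4 and 40.4 CPM in control cells and 68.8, 66.4 and 38.3 CPM after activation. Replicate 3 was the lowest in each condition, with a log2 difference of -0.69 (standard error 0.08, adjusted p = 1.7e-06 in edgeR). This call depended on *Thada*-activated replicate 3, without which the value was -0.54, short of a 1.5-fold change.

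Of the other 8 squalene and sterol genes, 3 more passed the adjusted p threshold without a 1.5-fold change. *Tm7sf2*, a sterol reductase, had a log2 difference of -0.48 (adjusted p = 0.000222 in edgeR), *Sc5d*, a sterol desaturase, one of -0.16 (adjusted p = 0.0276), and *Hsd17b7* one of 0.33 (adjusted p = 0.0203). *Fdft1* and *Sqle*, which make squalene and its epoxide, had values of 0.08 and -0.03 (adjusted p = 0.289 and 0.634 in edgeR). *Lss* at -0.05, *Nsdhl* at -0.09 and *Dhcr7* at -0.11 also did not pass. *Sqle*, for instance, stayed between 105 and 114 CPM in all 6 libraries.

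Of the regulators, *Srebf1* was the second most lowered member. At 159 and 182 CPM in replicate 3 against 373 to 447 CPM in replicates 1 and 2, it had a log2 difference of -1.28 (standard error 0.06, adjusted p = 3.36e-10 in edgeR), a fold of 0.413. Within control and within *Thada*-activated libraries the values were -1.24 and -1.32. *Srebf2* was higher in replicate 3, by 0.33 (standard error 0.06, adjusted p = 0.000155 in edgeR), with 217 and 222 CPM against 166 to 182 CPM and no overlap. *Scap* was lower, at 78.4 and 87.5 CPM against 109 to 126 CPM, with a log2 difference of -0.51 (adjusted p = 1.54e-05 in edgeR).

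*Insig1* gave 152, 171 and 241 CPM in control cells and 170, 161 and 235 CPM after activation. Replicate 3 was the highest in both, with a log2 difference of 0.54 (standard error 0.06, adjusted p = 1.61e-06 in edgeR). *Stard4*, a carrier of sterols in the cytosol, had a difference of 0.52 (adjusted p = 3.31e-06 in edgeR), with 97.5 and 105 CPM against 66.3 to 73.5 CPM. Replicate 3 of *Insig2* stood out less, with a difference of 0.23 (standard error 0.07, adjusted p = 0.012 in edgeR), and its value was 0.06 within control and 0.38 within *Thada*-activated libraries.

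In fatty acid synthesis, *Fasn*, the synthase that builds palmitate, was the most lowered of the 33. It gave 311, 279 and 108 CPM in control cells and 290, 314 and 127 CPM after activation. Both replicate 3 libraries were far below the lowest of the other 4. Its log2 difference was -1.36 (standard error 0.07, adjusted p = 1.11e-09 in edgeR), a fold of 0.391. *Acaca*, the acetyl-CoA carboxylase that feeds it, differed by -0.51 (standard error 0.06, adjusted p = 3.72e-06 in edgeR), with 77.3 and 85.2 CPM against 110 to 119 CPM. *Acly* differed by -0.26 (adjusted p = 0.00115 in edgeR), with 2503 and 2999 CPM against 3231 to 3305 CPM. For *Acss2* the value was 0.07 (adjusted p = 0.389 in edgeR).

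Among genes that lengthen or desaturate fatty acids, *Elovl6*, the elongase of palmitate, gave 56.7, 62.3 and 31.9 CPM in control cells and 53.4, 55.9 and 34.5 CPM after activation. Replicate 3 was lowest in both, with a log2 difference of -0.79 (standard error 0.07, adjusted p = 3.45e-07 in edgeR). *Scd2* gave 2119, 2305 and 1109 CPM in control cells and 2259, 2333 and 1137 CPM after activation, and *Fads2* gave 288, 279 and 152 CPM and 304, 310 and 157 CPM. In both genes the replicate 3 libraries were far below the others, with log2 differences of -1.01 (standard error 0.06, adjusted p = 2.59e-09 in edgeR) and -0.94 (standard error 0.06, adjusted p = 4.68e-09 in edgeR). Their relatives did not follow. *Scd1* was higher in replicate 3 by 0.30 (standard error 0.06, adjusted p = 0.000368 in edgeR), and *Fads1*, with 668, 681 and 693 CPM in control cells and 713, 742 and 662 CPM after activation, had a value of -0.05 (adjusted p = 0.435 in edgeR), with replicate 3 the highest of the control and the lowest of the *Thada*-activated libraries.

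Related genes changed rank or distance between libraries. Per length, the level of *Srebf1* was 2.56, 2.51 and 0.794 times that of *Srebf2* in control replicates 1, 2 and 3, and 2.74, 2.72 and 0.934 times in the *Thada*-activated ones. In FPKM, *Srebf1* was thus the higher of the pair in replicates 1 and 2 and the lower in replicate 3. The level of *Scd2* was 8.11, 8.48 and 3.29 times that of *Scd1* in control and 7.62, 7.16 and 3.04 times in *Thada*-activated replicates. The ratio of *Fads2* to *Fads1* in FPKM was 1.06, 1.01 and 0.536 in control and 1.04, 1.02 and 0.574 in *Thada*-activated replicates. That of *Insig1* to *Insig2* went up, from 1.61, 1.71 and 1.84, 1.91 in replicates 1 and 2 of control and *Thada*-activated cells to 2.40 and 2.0 in replicate 3. *Scd1* (chr19:44394455-44407879) and *Scd2* (chr19:44293674-44306864) lie close together on GRCm38, as do *Fads1* (chr19:10182888-10196877) and *Fads2* (chr19:10062765-10101746). The counts of *Scd1* were not whole numbers in 5 libraries, and those of *Acat2*, *Idi1* and *Fdft1* in all 6, which marks reads divided between genes, so these 4 are less certain.

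**Figure D3:**
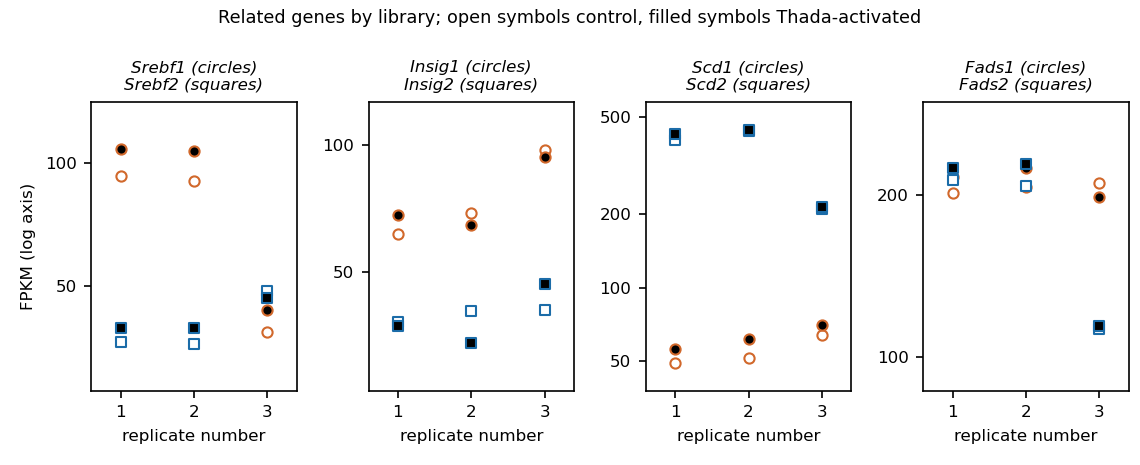
FPKM (y axis, log scale) by replicate number (x axis) for 4 pairs of related genes, with circles for the first gene and squares for the second, open for control and filled for *Thada*-activated libraries. *Srebf1* is above *Srebf2* in replicates 1 and 2 and below it in replicate 3, where *Scd2* and *Fads2* are also low, while *Scd1* and *Fads1* show no such fall.

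The replicate 3 difference was then taken within each condition, where the single replicate 3 library is assumed to vary like the other pair. In control libraries 8 of the 33 were called, or 24.2% (against 32.5% of 12808 tested genes), with 2 higher and 6 lower (16.2% and 16.3% of all tested), and in *Thada*-activated libraries 8, or 24.2% (against 29.8% of 12871), with 1 higher and 7 lower (15.7% and 14.2% of all tested). *Insig1*, at 0.59, was the second gene called higher in control alone. The sign was the same in both conditions for 29 of the 33 genes (87.9%, against 86.1% of all tested genes). The 4 exceptions were *Mvd*, *Sqle*, *Acss2* and *Fads1*, none of which passed the adjusted p threshold in the joint fit.

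**Figure D4:**
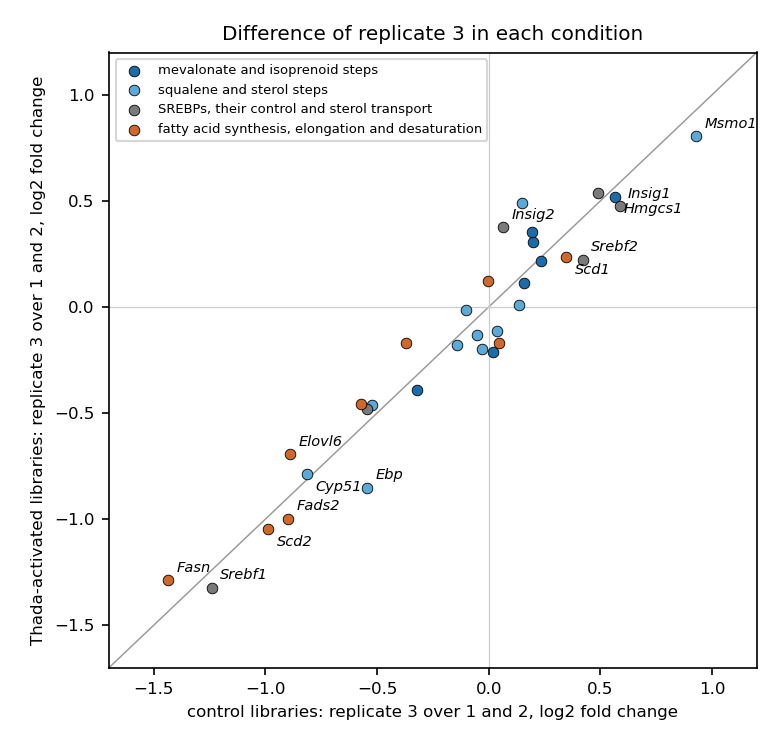
Log2 fold change of replicate 3 over replicates 1 and 2 in *Thada*-activated libraries (y axis) against the same in control libraries (x axis), 1 point per gene, coloured by role, with the line of equal values. Most points lie near the line, from *Fasn* (-1.44 in control, -1.29 in *Thada*-activated) to *Msmo1* (0.93 and 0.80), with *Insig2* above it (0.06 and 0.38) and *Ebp* below it (-0.54 and -0.85).

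A test of the difference between these effects, which is also the test of whether the effect of *Thada* activation differed between replicate 3 and replicates 1 and 2, called 0 of the 33 genes by edgeR (against 1.81% of all tested genes) and 0 by DESeq2. Replicate 3 has 1 library per condition, so the spread in this test comes from replicates 1 and 2 alone and the replicate 3 libraries are assumed to vary like them. By unadjusted p under 0.05, 5 genes passed (15.2%, against 21.1%), and by adjusted p alone 1 did (3.03%, against 6.96%). That gene was *Insig2*, with 89.8, 94.4 and 95.7 CPM in control cells and 87.9, 80.4 and 112 CPM after activation. In control, replicate 3 hardly differed from replicate 2, whereas in *Thada*-activated cells it was the highest. The difference of the effects was 0.31 on the log2 scale (standard error 0.10, unadjusted p = 0.00244, adjusted p = 0.0397 in edgeR), short of a 1.5-fold change. *Ebp* had a difference of -0.31 (adjusted p = 0.0979 in edgeR) and *Fads1* one of -0.22 (adjusted p = 0.0973).

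Genes of adjoining pathways were taken from 4 lists. Their counts of called genes in replicate 3 stand against 15.7% of all tested genes called higher and 15.4% lower, or 34.3% and 34.4% by adjusted p alone, and with lists this short nothing particular to a list is read from them. Of 18 tested genes of further lipid synthesis, 2 were called higher and 2 lower in replicate 3, and by adjusted p alone 6 were higher and 9 lower, with a median log2 difference of -0.15. *Acacb*, the carboxylase linked to the mitochondrial surface, had the largest rise (2.40, standard error 0.38, adjusted p = 6.23e-05 in edgeR), from 0.175 to 0.579 CPM in replicates 1 and 2 to 1.63 and 1.64 CPM in replicate 3, close to the floor of detection of 3 counts, or 0.169 to 0.175 CPM. *Elovl1*, an elongase of very long chains, and *Hsd17b12*, the reductase that works with the elongases, were lower, with log2 differences of -0.79 and -0.78 (adjusted p = 5.64e-07 and 5.03e-08 in edgeR).

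Of 9 genes that use isoprenoids downstream of the mevalonate pathway, 2 were called lower and 0 higher (all tested genes: 15.4% and 15.7%), with a median of 0.10. They were *Pdss1*, which builds the tail of coenzyme Q (log2 difference -1.46, adjusted p = 3.49e-06 in edgeR), and *Pggt1b*, a protein prenyltransferase subunit (-0.59, adjusted p = 1.42e-05), and *Nus1*, of dolichol synthesis, had a value of 0.52 (adjusted p = 1.75e-06). Of 6 tested genes of liver X receptors, sterol efflux and esterification, 1 was called in each direction. *Lpcat3*, which puts polyunsaturated chains into phospholipids, was lower, at -1.16 (adjusted p = 8.82e-09 in edgeR), *Mylip*, a ligase for lipoprotein receptors, higher by 1.07 (adjusted p = 1.74e-06), and *Nr1h2*, which encodes LXRβ, had a value of 0.56 (adjusted p = 3.94e-06). Of 9 tested genes of fatty acid oxidation, 1 was called in each direction. These were *Ppargc1a*, the coactivator PGC-1α, at 1.13 (adjusted p = 2.83e-07 in edgeR), and *Hadha*, of the mitochondrial trifunctional protein, at -0.76 (adjusted p = 4.78e-08), while *Acadl*, a dehydrogenase of long chains, had a value of 0.56 (adjusted p = 2.04e-06).

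Between conditions, none of the tested genes of these 4 lists was called by edgeR with or without the block. The list medians with the block were 0.01, -0.07, 0.03 and -0.02 on the log2 scale, in the order of the lists above. The largest estimates without the block were -0.24 for *Acacb*, -0.16 for *Fntb*, a farnesyltransferase subunit, 0.26 for *Lpcat3* and -0.16 for *Ppargc1a*, each with an adjusted p of 1 in edgeR, and 0.27 for *Lpcat3* with the block (unadjusted p = 0.00243, adjusted p = 0.198 in edgeR).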

How the data were processed

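RNA of MIN6 cells was sequenced on a BGISEQ-500 instrument. For each library the authors deposited estimated counts per gene, without normalization, and FPKM values, which scale those counts by library size and gene length. The submitters' processing notes name Bowtie2, RSEM, DESeq2 and GRCm38, with no version or setting. The authors' own fold changes, p-values and q-values between conditions are also deposited and were not used.

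Estimated counts were rounded to whole numbers (91.1% to 91.9% in a library were whole already). Genes were kept by filterByExpr, scaled by TMM and tested by the quasi-likelihood test of edgeR 4.0.16 in R 4.3.3 on all 12516 genes kept, with Benjamini-Hochberg adjustment over them. Conditions were compared with and without the replicate number as a block. Replicate 3 was compared with replicates 1 and 2 with the condition as a term, and the difference of the condition effect by an interaction term. CPM are of the library total, and 3 counts are 0.169 to 0.175 CPM. DESeq2 1.42.0 and limma 3.58.1, on log2(FPKM + 1) and log2(FPKM + 0.1), were alternatives, besides other filters, library sizes and samples. The tests were tried on simulated data.

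The numbers were taken to pair the libraries: over 12539 genes, deviations from the condition means correlated at 0.751, 0.747 and 0.897 between libraries of the same number. Crossing replicates 1 and 2 gave 0.775 and 0.777, and crossing with replicate 3 from -0.833 to -0.822, so the numbers set replicate 3 apart and do not separate 1 from 2. Libraries of a condition were no duplicates by chi-square on their counts.

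The 33 genes, the lists and the comparisons were chosen with earlier results of these data known. All members may be named. Full values are given for those called, up to 4 per role and comparison, or for the 2 with the lowest p where none was called, for both SREBP, INSIG and SCD genes, and for *Thada*. Up to 3 genes of each other list with the largest changes are named. Further members and marker genes named were chosen after their values were seen. Gene positions are from GENCODE M21 (GRCm38).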

Additional observations from a re-analysis of the deposited data

Results flagged for a closer look

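*Insig2* was flagged because its estimated effect of *Thada* activation in replicate 3 was 0.31 above that in replicates 1 and 2 on the log2 scale (standard error 0.10, adjusted p = 0.0397 in edgeR's interaction test), short of a 1.5-fold change. The effect in replicate 3 is that of 1 library against 1 (112 and 95.7 CPM), and the test takes all its spread from replicates 1 and 2, so it has no replicate check of its own. Its *Thada*-activated over control difference was below 0 in replicates 1 and 2 (-0.14 in those alone, adjusted p = 0.219 in edgeR), and *Thada*-activated replicate 3 held the highest level, 112 CPM.

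*Thada* itself was flagged for the same kind of difference, 0.52 on the log2 scale (standard error 0.13, adjusted p = 0.00935 in edgeR's interaction test), with the same limit. Control replicate 3 was at 16.96 CPM against 27.7 and 29.0 CPM in the other controls, and the *Thada*-activated libraries were at 50.2 to 57.4 CPM.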

How the results depend on the processing

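No member was called between conditions under any of the fits run except replicates 1 and 2 alone with no minimum fold change (added after seeing the data), which gave 2, *Srebf1* and *Scd1*. The replicate block changed no member's call, here or with DESeq2. Replicate 3 against replicates 1 and 2 gave 8 or 9 called members, and 24 with no minimum fold change, and the difference of the condition effect gave 0, and 1 with no minimum fold change. With each library, or each pair of the same number in the blocked fit, left out in turn, these counts stayed at 0 between conditions and 8 for replicate 3. The 8 were not always the same genes, since *Ebp* fell short of a 1.5-fold change without *Thada*-activated replicate 3. Over all tested genes, the conditions gave 0 called genes by edgeR, 5 by DESeq2, 19 with the block and from 18 to 70 with the block and a pair left out, 42 with replicate 3 as a term and 68 in replicates 1 and 2 alone. The difference of the condition effect gave 227 genes by edgeR, 871 without the minimum fold change and 42 by DESeq2.

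Log2 fold changes between conditions turned in sign for some named genes, none of them called. *Insig1* became 0.0028 and 0.0029 with limma (pseudocounts 1 and 0.1), 0.026 in replicates 1 and 2 alone with or without a minimum fold change, and 0.0046 without normalization factors, *Insig2* became 0.0010 without normalization factors, and *Ppargc1a* 0.026 in replicates 1 and 2 alone, with or without a minimum fold change. In the blocked fit, *Acacb* became 0.014 without replicate 1, *Insig1* 0.022, *Insig2* 0.063 and *Scap* -0.015 without replicate 2, and *Insig1* 0.027 and *Ppargc1a* 0.027 without replicate 3. With libraries left out in turn, values ranged from -1.80 to 0.83 for *Acacb*, -0.20 to 0.20 for *Insig1*, -0.16 to 0.066 for *Insig2*, -0.050 to 0.54 for *Lpcat3*, -0.55 to 0.42 for *Ppargc1a*, -0.10 to 0.20 for *Scap*, -0.23 to 0.30 for *Scd2*, -0.10 to 0.53 for *Srebf1* and -0.044 to 0.19 for *Srebf2*. A replicate 3 library left out makes the conditions unequal in number 3. For replicate 3, *Acss2* became -0.0021, *Fads1* 0.048, *Mvd* 0.017 and *Sqle* 0.035 in control libraries alone, and *Sqle* 0.0059 with library sizes without the 20 top genes. Their ranges with libraries left out were -0.16 to 0.054 for *Fads1*, -0.20 to 0.024 for *Mvd* and -0.11 to 0.041 for *Sqle*. *Ebp* in control libraries alone (-0.54), *Pggt1b* (lowest size -0.55) and *Acacb* with limma on log2(FPKM + 1) (0.20) fell short of a 1.5-fold change. The cause was not tested. Only 3 libraries per condition and 1 number standing apart limit what the unblocked fit can show.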
